A study of Oryzias latipes with 12 samples.

Results

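Transcript levels of the brain aromatase gene and of the nuclear receptors for sex steroids were examined in the brain of medaka (Oryzias latipes), a small freshwater fish that breeds under long days. The genes were taken by symbol, cyp19b, esr1, esr2 and pgr, and esr2 named 2 genes of the reference, so that the 4 symbols gave 5 genes of the 26663 in the deposited table. These were cyp19b (gene 100125815), esr1 (gene 101162413), esr2 (gene 100049269), a second esr2 gene listed with the synonym ESR2b (gene 100169840) and pgr (gene 100335138). The second estrogen receptor beta gene is called ESR2b here, and esr2 stands for gene 100049269.

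Aromatase converts androgens into estrogens. Teleost fishes carry a gonadal and a brain form of the enzyme, and the brain form is known for its high activity and its expression in radial glia, the progenitor cells that line the ventricles. The estrogen receptors encoded by esr1 and the esr2 genes, and the progesterone receptor encoded by pgr, are ligand-activated transcription factors through which gonadal and locally made steroids act on neurons, glia and pituitary cells. In fish brain, transcription of the brain aromatase gene is itself known to be raised by estrogens.

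The tissue of each library was the ventral telencephalon, the hypothalamus and the pituitary, taken at hour 12 of the day. There were 4 groups of 3 libraries: wild type under short days, phod1 knockout under short days, wild type after transfer to long days and phod1 knockout after the same transfer. All fish had been kept under short days. The short-day groups were sampled before the transfer and the long-day groups 12 days after it, so that day length cannot be told apart from the time elapsed or from the transfer itself. The labels give no sex or age, and they do not say that each library came from separate fish, so that the p-values measure the spread between these libraries. The genotype labels have no check in these data: phod1, also written pd1, matched no gene symbol.

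Levels are given as TPM, relative transcript abundances scaled by transcript length and library total. They keep no read counts, and the depth behind each value is unknown. Of all genes, 18218 reached 1 TPM in at least 3 libraries and were tested, all 5 steroid genes among them. A difference is one in log2(TPM + 1), which understates the change of genes with few TPM. It was called at an adjusted p under 0.05 (limma, Benjamini-Hochberg over all tested genes of a contrast, two-sided). Wild-type short-day replicate 3 stood apart through the interferon-induced gene rsad2, at 287 TPM there and at most 6.3 TPM in the other 11 libraries. Gonadotropin genes were present in all libraries, as a tissue with pituitary should hold, and prl stayed at or below 0.35 TPM. In tissue of this kind, fewer cells of a type and less RNA per cell cannot be told apart.

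The aromatase gene was the most abundant of the 5 and the only one with a call. In wild type, cyp19b stood at 187, 284 and 251 TPM under short days and at 701, 722 and 910 TPM after the transfer. In the knockout it stood at 323, 225 and 285 TPM under short days and at 680, 632 and 754 TPM under long days. All long-day libraries lay above all short-day libraries, whatever the genotype: the lowest long-day level was 632 TPM and the highest short-day level 323 TPM. Among all genes of the table, cyp19b ranked between 819 and 432 from the top in the short-day libraries and between 213 and 142 in the long-day libraries.

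The mean of cyp19b rose from 240.3 ± 49.4 to 778 ± 115 TPM in wild type (SD, n = 3 each), a ratio of 3.24. The difference in log2(TPM + 1) was 1.70 (95% interval 1.34 to 2.07, limma adjusted p = 0.00497), and cyp19b had the smallest p of all genes tested in this contrast. In the knockout the mean rose from 278 ± 49.2 to 689 ± 61.2 TPM, a ratio of 2.48. There the difference was 1.32 (0.95 to 1.68, limma adjusted p = 0.00419), at rank 24 by p. Over both genotypes the difference was 1.51 (1.25 to 1.77, limma adjusted p = 0.000202), with an exact permutation p of 0.005 within genotypes, the smallest that this design can give. For a single genotype, 3 libraries against 3 cannot go below an exact p of 0.1.

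These calls stood against different backgrounds. Long days against short days gave a call for 0.192% of all tested genes for wild type, 1.76% for the knockout and 3.08% over both genotypes, and for 1 of the 5 steroid genes each time. An unadjusted p under 0.05 was reached by 11.6%, 15.9% and 18.8% of all tested genes. Every long-day library lay above every short-day library for 4.95% of them in wild type and 12.8% in the knockout. The share of genes that separate in this way over both genotypes at once was not counted. Fitted to the wild-type libraries alone, without the spread of the knockout libraries, the wild-type difference of cyp19b just missed the threshold (limma adjusted p = 0.0515). Without wild-type short-day replicate 3 it was 1.74 (limma adjusted p = 0.0165).

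**Figure D1:**
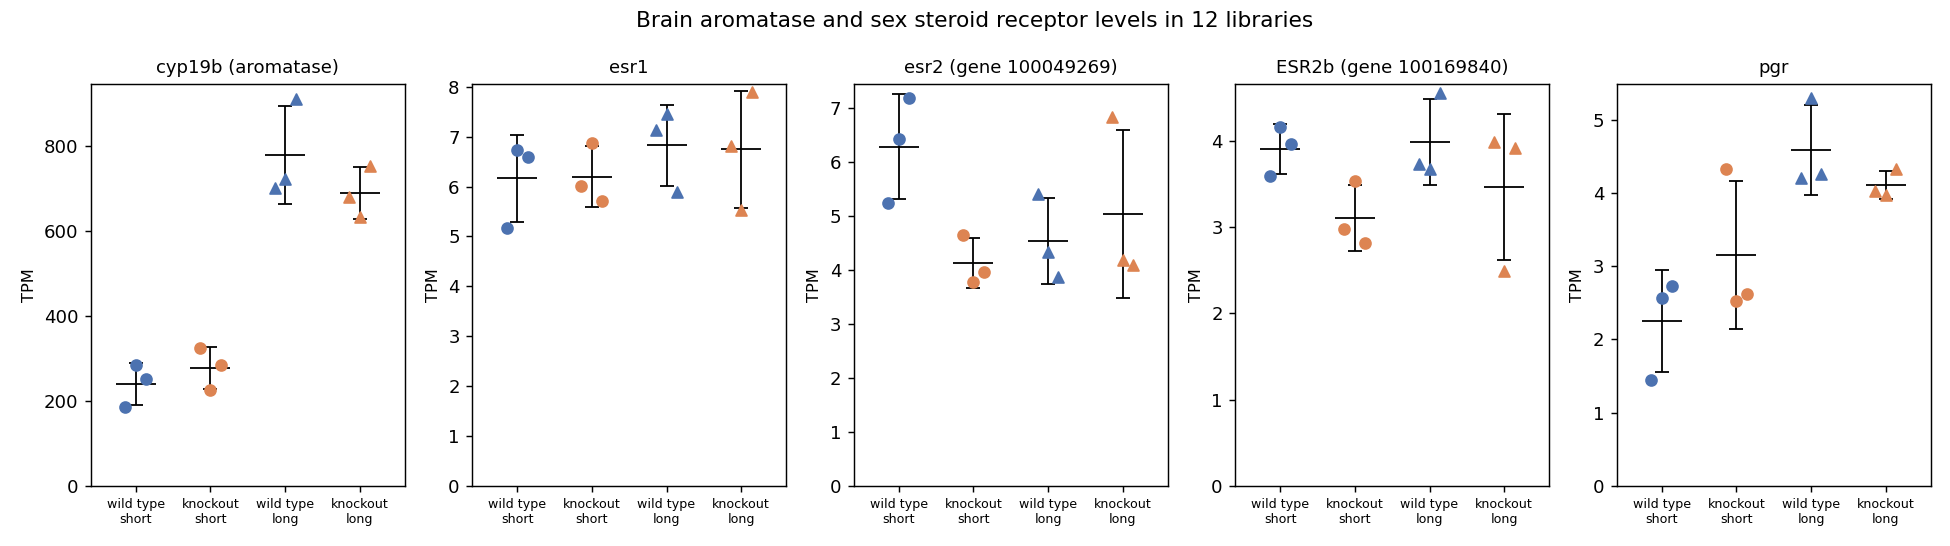
TPM of the 5 genes in each of 12 libraries (points), with the mean (horizontal bar) and SD of each group of 3; circles are short days, triangles long days, blue wild type and orange knockout, and each panel has its own axis from 0. For cyp19b all 6 long-day libraries lie above all 6 short-day libraries, while the ranges of esr1 overlap between all groups.

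The mean level of glial marker genes varied little between the libraries, though single markers did not all move the same way. The 9 tested markers of radial glia and astroglia, which in other vertebrates mark the cells that line the ventricles or surround synapses, had a mean log2(TPM + 1) between 8.23 and 8.38 in every library. In wild type, cyp19b lay 0.39 ± 0.284 below that mean under short days and 1.25 ± 0.177 above it under long days (log2 units, SD, n = 3). In the knockout it lay 0.206 ± 0.268 below and 1.14 ± 0.088 above. The gap thus differed between photoperiods by 1.65 in wild type and 1.34 in the knockout, close to the differences of cyp19b itself. This follows from the narrow range of the marker mean, in which opposite moves of single markers can cancel, and is no further result. Taking the median of the markers in place of their mean gave 1.10 in the knockout.

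Of the 9 glial markers, 0 were called in wild type by limma, with 2 at an unadjusted p under 0.05. Over all tested genes these shares were 0.192% and 11.6%. In the knockout 1 was called, with 2 at an unadjusted p under 0.05, against 1.76% and 15.9% of all tested genes. The called gene was s100b, a glial calcium-binding protein gene, which rose from 702 to 975 TPM in mean (0.47, limma adjusted p = 0.0397). The call of s100b in the knockout was lost in 14 of 20 alternatives, and over both genotypes it was lost in 0 of 19 (0.39, limma adjusted p = 0.0120). The median difference of the 9 markers was 0.02 in wild type and -0.06 in the knockout, against -0.05 and 0.03 over all tested genes. By direction alone, 7 of the 9 were higher under long days in wild type and 3 in the knockout. The radial glia gene fabp7 ran from 1684 to 1858 TPM and from 2057 to 2215 TPM in wild type under short and long days. In the knockout fabp7 ran from 1847 to 2328 TPM and from 1455 to 1770 TPM. The photoperiods thus did not overlap for fabp7 in either genotype, with long days higher in wild type and lower in the knockout. Of all tested genes 4.95% separated with long days higher in wild type, and the share lower in the knockout was not counted. Neither difference of fabp7 was called. In the interaction 1 of the 9 markers reached an unadjusted p under 0.05, where 7.93% of all tested genes did, and 0 were called. The summed level of the 11 glial markers in the table, untested ones included, ran from 6465 to 6673 TPM and from 6946 to 7314 TPM in wild type under short and long days, and from 6260 to 7027 TPM and from 6441 to 6791 TPM in the knockout. Among them slc1a3 and aqp4, transporter and water channel genes of astroglia in mammals, stayed at or below 1.22 TPM and 1.10 TPM.

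**Figure D2:**
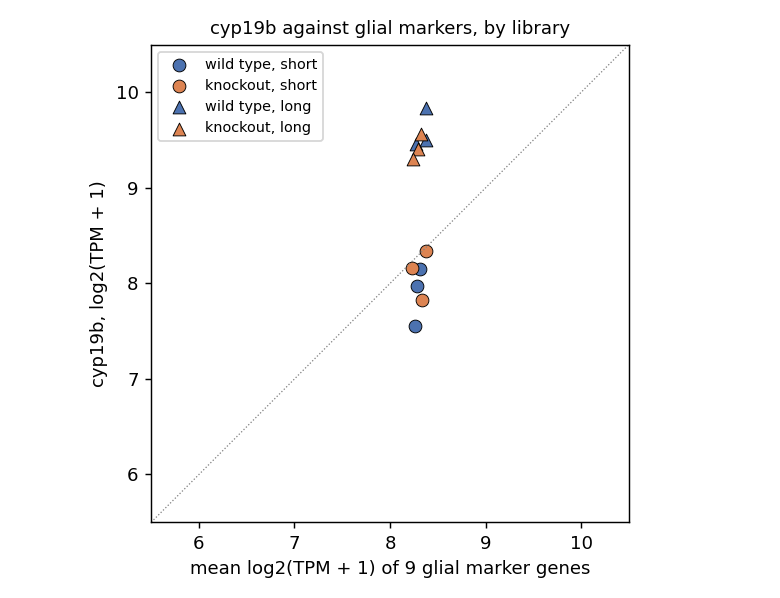
Level of cyp19b against the mean level of 9 glial marker genes, both in log2(TPM + 1), for each of 12 libraries; the dotted line marks equal values. The libraries spread along the cyp19b axis and hardly along the marker axis, where all lie between 8.23 and 8.38.

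The estrogen receptor genes were far less abundant than aromatase and had no call between photoperiods. For esr1, estrogen receptor alpha, the wild-type libraries held 5.16, 6.73 and 6.60 TPM under short days and 7.13, 7.45 and 5.90 TPM under long days. The knockout libraries held 6.01, 6.88 and 5.71 TPM under short days and 6.82, 5.54 and 7.89 TPM under long days. All 4 groups overlapped. The difference of esr1 between long and short days was 0.13 in wild type (95% interval -0.20 to 0.46, limma adjusted p = 0.800) and 0.10 in the knockout (-0.23 to 0.43, limma adjusted p = 0.806). Over both genotypes it was 0.11 (-0.12 to 0.35, limma adjusted p = 0.622).

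For esr2, an estrogen receptor beta gene, wild type held 5.25, 6.44 and 7.19 TPM under short days and 5.42, 4.33 and 3.88 TPM under long days. The knockout held 4.65, 3.79 and 3.96 TPM under short days and 6.85, 4.18 and 4.10 TPM under long days. The wild-type short-day libraries were the highest except that 1 long-day library of each genotype, at 5.42 and 6.85 TPM, reached their range. Long days differed from short days by -0.40 in wild type (-0.81 to 0.02, limma adjusted p = 0.457) and by 0.21 in the knockout (-0.21 to 0.63, limma adjusted p = 0.637). The 2 photoperiod differences of esr2 differed from each other by 0.61 (0.02 to 1.19, unadjusted p = 0.0446), which did not pass over all genes (limma adjusted p = 0.611).

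For ESR2b, wild type held 3.59, 4.16 and 3.96 TPM under short days and 3.73, 3.67 and 4.56 TPM under long days. The knockout held 2.98, 3.54 and 2.81 TPM under short days and 3.99, 2.49 and 3.92 TPM under long days. Both photoperiods overlapped in each genotype. Long days differed from short days by 0.02 in wild type (-0.34 to 0.39, limma adjusted p = 0.983) and by 0.11 in the knockout (-0.26 to 0.47, limma adjusted p = 0.811).

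The progesterone receptor gene pgr, a known estrogen target in several vertebrate tissues, was the receptor gene with the largest photoperiod difference in wild type, and it did not pass. It stood at 1.45, 2.56 and 2.73 TPM in wild type under short days and at 4.21, 5.30 and 4.26 TPM under long days. In the knockout it stood at 4.32, 2.52 and 2.62 TPM under short days and at 4.02, 3.97 and 4.32 TPM under long days. The wild-type groups did not overlap, a separation that 4.95% of all tested genes showed in that direction. The knockout groups overlapped, because short-day replicate 1 was as high as any knockout long-day library.

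The wild-type means of pgr were 2.25 ± 0.695 and 4.59 ± 0.615 TPM, a ratio of 2.04, with a difference of 0.80 (0.35 to 1.25, unadjusted p = 0.00222, limma adjusted p = 0.152). The knockout means were 3.15 ± 1.01 and 4.10 ± 0.189 TPM, a ratio of 1.30, with a difference of 0.32 (-0.13 to 0.77, limma adjusted p = 0.480). Over both genotypes the difference was 0.56 (0.25 to 0.88, limma adjusted p = 0.0629). The exact permutation p within genotypes for that difference was 0.02, 1 of 10 such tests made on the 5 genes, with no adjustment. Without knockout short-day replicate 1 the difference over both genotypes passed (0.66, limma adjusted p = 0.0332). Whether pgr passed thus depended on the setting and on 1 library. Without wild-type short-day replicate 3, the library with high rsad2, the wild-type difference was 0.91 (limma adjusted p = 0.223).

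**Figure D3:**
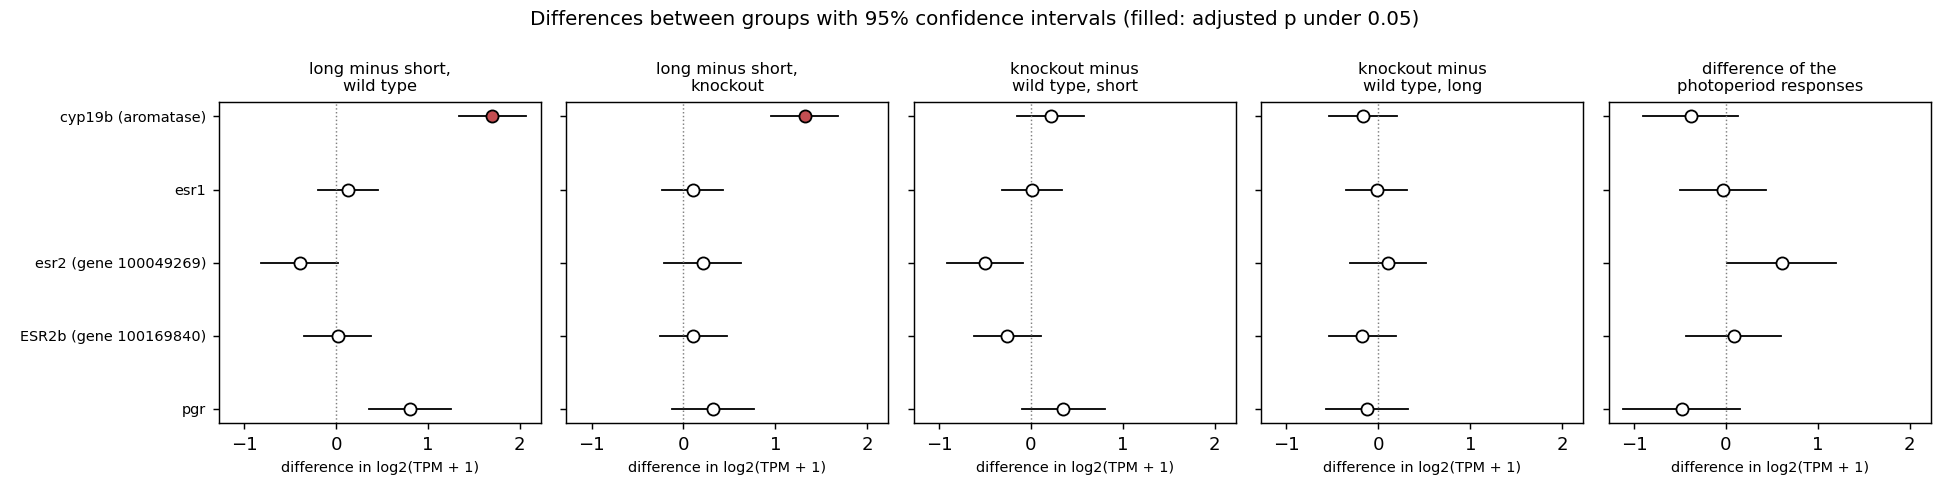
Differences in log2(TPM + 1) for the 5 genes in 5 contrasts, with 95% confidence intervals from the limma fit; filled points have an adjusted p under 0.05. The filled points are cyp19b at 1.70 in wild type and 1.32 in the knockout, and the interval of pgr in wild type, 0.35 to 1.25, lies above 0 without a call.

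The order of levels, all per length, was stable at its top and only in part below it. The level of cyp19b was above all receptor genes in 12 of 12 libraries, and esr1 was above ESR2b and above pgr in 12 of 12. Gene esr1 was above esr2 in 9 of 12 libraries, in all short-day knockout and long-day wild-type libraries, in 2 of 3 long-day knockout libraries and in 1 of 3 wild-type short-day libraries. Gene esr2 was above ESR2b in 11 of 12. The order of pgr and ESR2b was mixed, with pgr above in 0 of 3 wild-type short-day, 1 of 3 knockout short-day, 2 of 3 wild-type long-day and 3 of 3 knockout long-day libraries.

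The 3 estrogen receptor genes together summed to between 12.2 and 17.8 TPM in every library. The sum was 16.4 ± 2.05 TPM in wild-type short-day libraries and 13.4 ± 0.882 TPM in knockout short-day libraries, and 15.4 ± 0.973 and 15.3 ± 2.78 TPM under long days. The share of esr1 in the sum was 36.9% to 38.8% in wild type under short days and 44.1% to 48.4% in the knockout under short days. Under long days it was 41.1% to 48.2% in wild type and 38.6% to 49.6% in the knockout. The short-day wild-type libraries thus held the lowest esr1 share, overlapping with that of the long-day knockout. A share falls when another member rises, so that these values describe the mixture and not a change of esr1.

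**Figure D4:**
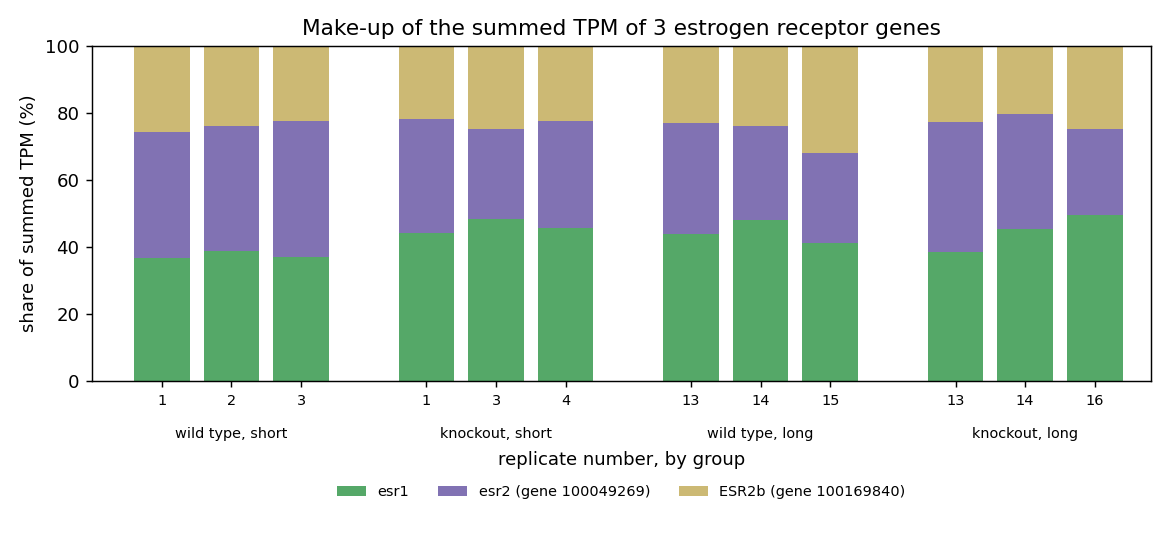
Share of each estrogen receptor gene in the summed TPM of the 3 genes (bars reach 100%), for 12 libraries marked by replicate number and group. The esr1 share is 36.9% to 38.8% in wild-type short-day libraries and 44.1% to 48.4% in knockout short-day libraries.

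The ratio of aromatase to the estrogen receptor genes followed aromatase. The level of cyp19b was 13.3 to 16.4 times the summed estrogen receptor level in wild-type short-day libraries and 15.9 to 23.7 times in knockout short-day libraries. Under long days it was 43.1 to 63.5 times in wild type and 38.5 to 51.8 times in the knockout. No long-day ratio overlapped with a short-day ratio. This follows from the separation of cyp19b, given the narrow range of the receptor sum, and is no further result.

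Knockout against wild type gave no call for any of the 5 genes by limma. At an unadjusted p under 0.05 there was 1 under short days, esr2, where 13.2% of all tested genes reached this. The background of calls was 0.664% under short days, then 0.642% for long days and 2.4% for the average of both photoperiods. The level of cyp19b differed by 0.21 under short days (-0.15 to 0.58, limma adjusted p = 0.632) and by -0.17 under long days (-0.53 to 0.20, limma adjusted p = 0.776). Its photoperiod difference was smaller in the knockout by 0.38, with an interval from -0.90 to 0.13 (limma adjusted p = 0.711), so that a smaller response and an equal one both lay within the interval. That interaction gave a call for 0.00549% of tested genes, 1 gene in all, and for none of the 5. At an unadjusted p under 0.05 there was 1 of the 5, esr2, where 7.93% of all tested genes reached this.

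Both estrogen receptor beta genes were lower in every knockout library than in every wild-type library under short days, without a call. Of all tested genes 13.2% showed that separation in that direction. For esr2 the means were 4.13 ± 0.455 and 6.29 ± 0.978 TPM (-0.50, -0.92 to -0.09, unadjusted p = 0.0223, limma adjusted p = 0.289). Without wild-type short-day replicate 3 the difference of esr2 was -0.41 (limma adjusted p = 0.578). For ESR2b they were 3.11 ± 0.382 and 3.90 ± 0.289 TPM (-0.26, -0.62 to 0.11, limma adjusted p = 0.553). Under long days the genotypes overlapped for both, with differences of 0.10 for esr2 and -0.17 for ESR2b. Over both photoperiods ESR2b differed by -0.22 (-0.47 to 0.04, limma adjusted p = 0.426, exact permutation p = 0.06). The gene pgr differed by 0.35 under short days and -0.13 under long days, and esr1 by 0.01 and -0.02, none of them called.

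Some markers of other cell types were also called between the genotypes. Of the 7 hypothalamic neuron genes in the table, 6 were tested, and their summed level was 1246 to 1637 TPM in wild type and 938 to 1055 TPM in the knockout under short days, and 1249 to 1301 TPM and 949 to 981 TPM under long days, with no marker at 0. Over both photoperiods 2.4% of all tested genes were called between the genotypes, and 15.6% reached an unadjusted p under 0.05. In that contrast 2 of 6 were called lower in the knockout, the oxytocin gene oxt (-1.29, limma adjusted p = 0.0308) and the orexin gene hcrt (-0.50, limma adjusted p = 0.0360). The other 4 were not called, and by direction alone the 6 were split into 3 higher and 3 lower. The call of oxt was lost in 9 of 20 alternatives and that of hcrt in 12 of 20. Under short days alone 1 of 6 was called lower, again hcrt, against 0.664% of all tested genes. That call was lost in 19 of 21 alternatives. The pituitary transcription factor gene pou1f1 was called higher (0.46, limma adjusted p = 0.0491), as 1 of 2 tested genes of other pituitary cells. It lost this call in 16 of 20 alternatives. The other gene, pomc, was lower in the knockout by direction and was not called. Of the 9 glial markers, s100b was called lower in the knockout over both photoperiods (-0.33, limma adjusted p = 0.0316), which was lost in 12 of 20. By direction alone, 4 of the 9 were higher and 5 lower. The part of these cell types in the lower esr2 levels was not tested.

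Among other genes of steroid synthesis and metabolism no photoperiod difference passed within a genotype. Of 15 tested genes, 0 were called by limma in wild type and 0 in the knockout, with 2 at an unadjusted p under 0.05 each. Of all tested genes 11.6% and 15.9% reached that unadjusted p. With 0.192% and 1.76% of all tested genes called, a list of this length would hold few or no calls in any case. Their median differences were -0.10 and -0.03, against -0.05 and 0.03 over all tested genes. The gonadal aromatase gene, listed under LOC101174651 with the synonym cyp19a1, was too low to test, at 0 to 0.26 TPM in wild type and 0 to 0.14 TPM in the knockout under short days. Under long days it stood at 0.07 to 0.25 TPM in wild type and at 0.43, 0.56 and 1.29 TPM in the knockout. These values lie near the lower end of the table and carry no test. The genes star (cholesterol transport), cyp17, hsd17b1 and cyp11b (steroid synthesis enzymes) were also below the filter, none above 1.39 TPM in any library. The gene sts, for the sulfatase that frees steroids from their sulfates, was called higher in the knockout over both photoperiods (0.69, limma adjusted p = 0.0331). It was 1 of 15, where 2.4% of all tested genes were called. Its means were 5.58 and 9.93 TPM under short days and 5.93 and 10.3 TPM under long days, in wild type and knockout, and the call was lost in 12 of 20 alternatives.

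Of 10 tested genes for other steroid and orphan receptors, none was called by limma in any of the 7 contrasts. Between the genotypes, 1 reached an unadjusted p under 0.05 under long days and 1 over both photoperiods. Of all tested genes 11.3% and 15.6% did so. The smallest p belonged to pgrmc1, a membrane progesterone receptor component, lower in the knockout over both photoperiods by a difference of -0.27 (unadjusted p = 0.0172, limma adjusted p = 0.201). Next was the orphan receptor gene nr5a2 (-0.32, unadjusted p = 0.0690, limma adjusted p = 0.370). The membrane estrogen receptor gene gper1 ran from 1.20 to 4.06 TPM and differed by -0.35 in wild type and 0.24 in the knockout between photoperiods (limma adjusted p = 0.628 and 0.694). Androgen receptor genes matched no symbol and were not analysed here.

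Of 17 receptor coregulator genes, 0 were called between photoperiods by limma in either genotype, with 3 at an unadjusted p under 0.05 in each. Over all tested genes 0.192% and 1.76% were called, and 11.6% and 15.9% reached that unadjusted p, in wild type and knockout. Over both genotypes 1 fell, against 3.08% of all tested genes called. It was the co-chaperone gene stip1 (-0.33, limma adjusted p = 0.0332), whose call was lost in 9 of 19 alternatives. Its means were 109 and 111 TPM under short days and 86.1 and 88.5 TPM under long days, in wild type and knockout.

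Of 12 tested genes known in vertebrates as estrogen-sensitive in brain or pituitary, 3 were called higher under long days in each genotype. None was called lower. Over all tested genes, 0.192% were called in wild type and 1.76% in the knockout. The 3 genes were the gonadotropin subunit genes fshb, lhb and cga. The luteinizing hormone beta gene lhb rose from 46.7 to 242 TPM in wild type (2.36, limma adjusted p = 0.00588) and from 76.8 to 439 TPM in the knockout (2.43, limma adjusted p = 0.00165). The shared alpha subunit gene cga rose by 2.04 and 2.49, and the follicle-stimulating hormone beta gene fshb by 3.67 and 1.76. In the knockout the call of fshb was lost in 13 of 20 alternatives. Its wild-type difference was 3.04 without wild-type short-day replicate 3, whose level of 31.4 TPM was below the 122 and 115 TPM of replicates 1 and 2. That call was lost only in a fit to the wild-type libraries alone (limma adjusted p = 0.115), 1 of 20 alternatives. The wild-type call of cga was lost in 4 of 20 alternatives, without short-day replicate 1 (limma adjusted p = 0.0558) or long-day replicate 13 (0.0519) or 15 (0.0673), and in a fit to wild type alone (0.0515). The list's median differences were 0.06 in wild type and 0.12 in the knockout, against -0.05 and 0.03 over all tested genes.

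Over both genotypes 4 of these 12 genes were called higher, against 3.08% of all tested genes called, with npb (gene 105354556) as the fourth. Neuropeptide B is known in medaka brain from neurons of females that respond to estrogen. Its means went from 201 to 344 TPM in wild type and from 165 to 324 TPM in the knockout (0.83, limma adjusted p = 0.0435), and its call was lost in 13 of 19 alternatives. The other npb gene of the table (gene 101155748) ran from 3.86 to 10.7 TPM and was not called.

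Some gonadotrope markers were called with photoperiod as well. Of 5 tested markers, which include those same 3 subunit genes, 3 were called higher in each genotype (0.192% and 1.76% over all tested genes). The summed level of the 5 markers was 451 to 634 TPM and 463 to 699.6 TPM under short days in wild type and knockout. Under long days it was 2466 to 3104 TPM and 2037 to 3196 TPM, with no marker at 0. Neither tested marker of other pituitary cells was called between photoperiods by limma, with 0 at an unadjusted p under 0.05, and pomc ran from 1602 to 8537 TPM, overlapping between all groups. The part of gonadotropes in the levels of cyp19b and pgr was not tested. The 7 lists for the remaining cell types (telencephalic and general neurons, oligodendrocytes, microglia, endothelium, retina or pineal, and liver) held 17 tested genes. They gave 0 calls by limma in the 7 contrasts, with 15 of 119 tests (12.6%) at an unadjusted p under 0.05. Over all tested genes that share was 7.93% to 18.8%, depending on the contrast. The 3 endothelial genes were each higher in the knockout under long days, at an unadjusted limma p under 0.05, which 11.3% of all tested genes reached there. Their median difference there was 0.36, against 0.04 over all tested genes. The liver list held 1 tested gene, listed under LOC100144362, which ran from 4000 to 7364 TPM over all libraries. The reason for this high level was not tested. The other liver gene, fga, was too low to test, at or below 1.13 TPM. The retina or pineal list held 0 tested genes and so carries no test. Its gene aanat2 stood at 24.2 and 3.69 TPM in knockout short-day replicates 3 and 4. In no other library was aanat2 above 0.85 TPM.

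**Figure D5:**
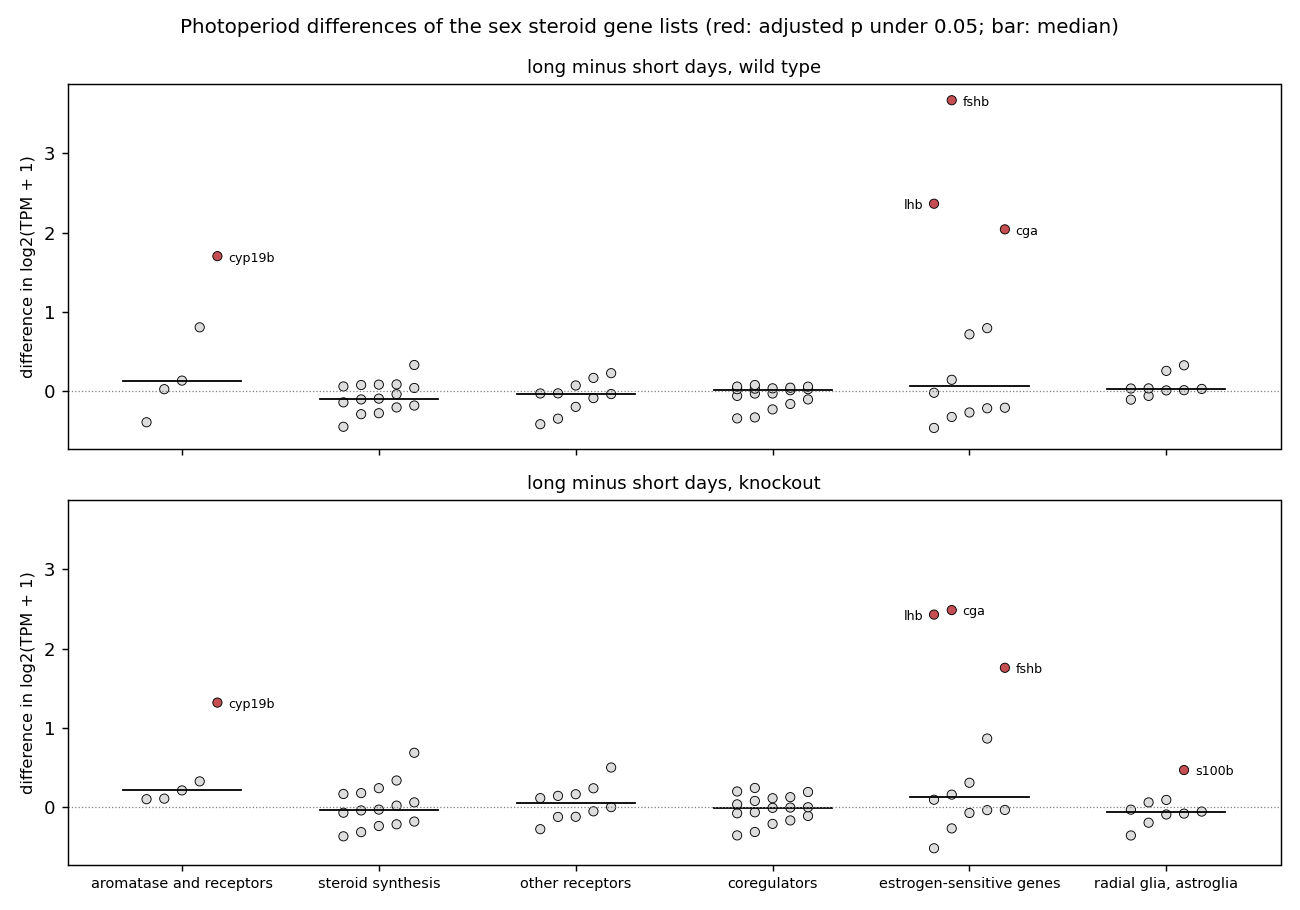
Long-day minus short-day differences in log2(TPM + 1) for every tested gene of the 5 steroid genes and of 5 gene lists, in wild type (top) and knockout (bottom); red points are called and named, and bars are medians. In wild type the called genes are cyp19b, lhb, cga and fshb, and in the knockout s100b is called as well.

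The genes whose pattern over the 12 libraries was most like that of cyp19b were found by the root mean square difference of standardised log2(TPM + 1), in SD units. Genes listed only under a LOC number were left out of this search and of those below. The nearest was cga at 0.264, followed by pde7b at 0.304, map3k19 at 0.370, lhb at 0.392 and pik3ip1 at 0.395. All of them share the 12 libraries and the split by photoperiod. After the group means were taken away, the nearest genes to cyp19b were efcc1 at 0.441, fignl2 at 0.504, zc3h6 at 0.515, cga at 0.539 and gjd2 at 0.548, so that cga was in both sets.

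For pgr the nearest were racgap1 at 0.489, mgea5 at 0.522, cyp19b at 0.527, slc29a4 at 0.532 and wipi1 at 0.562. The aromatase gene was thus the third nearest of all tested genes with a symbol to pgr. That distance includes the split by photoperiod, and for pgr no search was made with the group means taken away. For the estrogen receptor genes the distance to the nearest gene was as large, 0.531 from esr1 to mrpl9, 0.522 from esr2 to aktip and 0.490 from ESR2b to dpm3. The next in order were ntng1, eys, triap1 and polr2k for esr1, bbs10, wdr17, l3mbtl2 and zfyve27 for esr2, and zdhhc15, znf513, tefm and rab15 for ESR2b. None of the 5 steroid genes was among the 5 nearest to an estrogen receptor gene.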

How the data were processed

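Strand-specific libraries of polyadenylated RNA were read from both ends, per the labels. RSEM 1.3.1 and STAR 2.7.9a appear in the submitters' processing notes, with their roles not given, and no source used here names the genome build or annotation. The authors deposited TPM per gene and library, each column summing to 1000000 within rounding. Symbols came from the RefSeq genes of ASM223467v1, which matched all 26663 gene IDs. How reads shared by the related receptor genes were divided is not stated.

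Values entered as log2(TPM + 1) into 1 fit of 4 group means (limma 3.58.1, R 4.3.3, trended prior variance), for genes with at least 1 TPM in at least 3 libraries. The 7 contrasts were long against short days and knockout against wild type, each within the other factor and averaged, and the interaction. Contrasts share groups, and their values are not independent. The fit was tested on simulated data. Exact permutation tests moved labels within genotype or photoperiod.

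The genes, the 5 gene lists, the marker lists and the tests were chosen with earlier results of these data known. Named are the 5 genes, every called list gene, gper1 and gonadal aromatase, the 2 smallest p of a list without calls, and the 5 nearest patterns. The called or defining cell type markers, foxl2, nr5a1, fabp7, the endothelial and liver genes, untested list genes and rsad2 were chosen after their values were seen. The alternatives changed 1 setting at a time: pseudocount, filter, scaling, dropping the 20 most abundant genes, prior variance, array weights, fitting only the compared groups, replicate block and each library left out.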

Additional observations from a re-analysis of the deposited data

How the results depend on the processing

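Across 35 results on the 5 genes and 701 alternatives, 664 kept direction and side of the threshold. The calls of cyp19b held in all but 1 of them: fitted to the wild-type libraries alone, its wild-type difference was 1.70 (limma adjusted p = 0.0515), and with 1 library left out it ran from 1.53 to 1.83. The difference of pgr over both genotypes passed with median-ratio scaling (0.57, limma adjusted p = 0.0495) and array weights (0.53, 0.0463), and with 1 library left out it ran from 0.47 to 0.66. The exact permutation test of that difference (0.56, p = 0.02) was counted above as crossing the threshold. Its p is not adjusted over all genes, so that it is no call. The limma fit gave an unadjusted p of 0.00235 for the same difference. In the knockout, cyp19b against the median of the glial markers moved to 1.10.

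Signs changed in 32 alternatives of 9 results, 0 of them with a call. With array weights these were -0.061 for cyp19b between genotypes over both photoperiods, 0.041, 0.032 and 0.017 for esr1 (genotypes under long days, over both, interaction) and -0.052 for the interaction of ESR2b. With 1 library left out, cyp19b between genotypes over both photoperiods ran from -0.063 to 0.094. For esr1 the ranges were -0.0064 to 0.22 (photoperiod, knockout), -0.094 to 0.070, -0.125 to 0.097 and -0.057 to 0.054 (genotypes under short days, for long days and averaged) and -0.14 to 0.085 (interaction). They were -0.099 to 0.21 for esr2 between genotypes under long days, and -0.059 to 0.066 (photoperiod, wild type) and -0.0055 to 0.25 (interaction) for ESR2b. The causes were not tested.

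Whether the title numbers pair the libraries could not be settled from so few pairs. Deviations of same-numbered libraries correlated at 0.0817 and 0.0881 under short days and at -0.0478 and -0.00492 under long days (across genes). For libraries with different numbers the correlations ran from -0.140 to 0.0483 under short days and from -0.0776 to 0.0920 under long days. The same-numbered pairs were thus the highest under short days and not under long days. With the replicate block, calls between genotypes fell from 121 to 6, from 117 to 6 and from 437 to 30. The interaction of ESR2b was then -0.0048 and the difference of cyp19b under short days 0.32. Only numbers 1 and 3 under short days and 13 and 14 under long days occur in both genotypes. The block thus rests on those pairs and leaves little to estimate the spread, so that the fall in calls cannot decide on pairing. The block could not be fitted for photoperiod, because the numbers differ between photoperiods. Called genes over all alternatives ranged from 1 (2 groups alone) to 292 (array weights) against 35 in wild type, 61 to 462 against 321 in the knockout, 214 to 1068 against 562 over both, and, between genotypes, up to 131, 383 and 719, with 0 to 9 against 1 for the interaction. A filter of at least 5 TPM left out ESR2b and pgr. Depth is unknown, and 3 libraries a group limit what differences of the receptors could pass.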
